A study of Mus musculus with 6 samples.

Results

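Early response genes of the NR4A and EGR families and 4 genes that usually accompany them were followed in mpkCCD clone 11 cells. This is 1 clone of an immortalised line from mouse kidney cortical collecting duct. The 10 genes were Nr4a1, Nr4a2, Nr4a3, Egr1, Egr2, Egr3, Ier2, Btg2, Dusp1 and Klf4. Every probe set that the platform annotation assigns to exactly 1 of them was taken, which gave 16 of 28225 probe sets and 9 genes. Nr4a3 had 0 probe sets in the table and its RNA is not analysed here. Cells were grown on membrane supports to form a polarized layer, and were treated once the electrical resistance was 5 kohm per cm2 or higher. The dDAVP group (3 arrays) received 0.1 nM dDAVP (desmopressin, a vasopressin analog selective for the V2 receptor) for 5 days, and the vehicle group (3 arrays) received vehicle for the same 5 days. Both groups are the same clone, with no genetic change given. Total RNA was hybridised to Affymetrix Mouse Genome 430 2.0 arrays, 1 per sample. The labels call the samples biological replicates and give no passage or day for them, so each p-value reflects only how these 6 samples vary. The RNA came from whole cultures, so more cells that express a gene and more RNA per cell cannot be told apart.

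In many cells the V2 receptor and related receptors raise cAMP, protein kinase A then phosphorylates the factor CREB, and CREB bound to cAMP response elements switches on a first wave of genes without new protein synthesis. NR4A and EGR genes belong to this wave and also answer to growth factors through serum response factor. The wave is typically short, because the RNAs are unstable and several of the products restrain the pathway that induced them. The comparison asks what level these RNAs hold after days, not minutes, of receptor stimulation.

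The treatment and the cells were checked first. Aqp2, the vasopressin-regulated water channel of principal cells, was at 10.85 ± 0.072 log2 units in dDAVP cells and 6.70 ± 0.042 in vehicle cells (SD, n = 3 each, limma adjusted p = 1.66e-07). Of 14 listed principal cell markers 13 were measured, and 3 rose with dDAVP (Aqp2, Fxyd4 and Avpr2). Probe sets for 10 olfactory receptors served as a background, with a 95th percentile of 3.56. Of the markers of other cell types, the leukocyte gene Ptprc averaged 3.32 in dDAVP and 3.11 in vehicle cells and the endothelial gene Cdh5 3.09 in dDAVP and 3.11 in vehicle cells, both below it. The macrophage receptor Csf1r (9.29 in dDAVP and 9.42 in vehicle cells) and the proximal tubule receptor Lrp2 (8.25 in dDAVP and 8.35 in vehicle cells) were well above it in both groups. Aqp1, the other proximal tubule marker measured, averaged 3.44 in dDAVP and 3.43 in vehicle cells, below the background. Cd68, a lysosomal protein of macrophages, averaged 5.65 in dDAVP and 5.46 in vehicle cells (limma adjusted p = 0.593), with every dDAVP array above every vehicle array, and its part in the member values was not tested. Only 2 of 6 intercalated cell markers were measured, Atp6v1b1 and Atp6v0a4. Their summed linear signal was 235 to 273 in dDAVP arrays and 197 to 209 in vehicle arrays, so it was higher on every dDAVP array. So were the Nr4a1 and Egr3 signals described next, and the part of the intercalated cell genes in those was not tested. Neither Atp6v1b1 (limma adjusted p = 0.153) nor Atp6v0a4 (limma adjusted p = 0.397) was called. Of all named genes, 10.1% had every dDAVP array above every vehicle array. The 3' minus 5' signal of beta-actin, a sign of RNA quality, was 0.69 ± 0.021 in dDAVP and 0.70 ± 0.017 in vehicle arrays (exact two-sided permutation p = 0.6).

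None of the 16 member probe sets passed limma's test at a Benjamini-Hochberg adjusted p below 0.05 (0 called, against 0.216% of all probe sets). The lowest adjusted p was 0.0910, for Nr4a1. At an unadjusted p below 0.05 there were 5 member probe sets, all with the higher mean in dDAVP cells: that of Nr4a1, 3 of Nr4a2 and that of Egr3. Over all probe sets 4.85% were in that class. The same 5 were those whose dDAVP arrays all lay above all vehicle arrays, against 8.07% of all probe sets, and 0 lay wholly below. Counted by gene on its brightest probe set, 3 of 9 genes were in both classes, against 5.51% and 10.1% of 12364 genes. Probe sets of 1 gene are not independent of each other, and the members were chosen with earlier results of these data known. All 16 changes were under 1.5-fold, and the median log2 change of the 16 was 0.06, against 0.0039 over all probe sets. All 16 had a mean above the olfactory receptor background, as did 25177 of all 28225 probe sets, so this does not set the members apart.

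**Figure D1:**
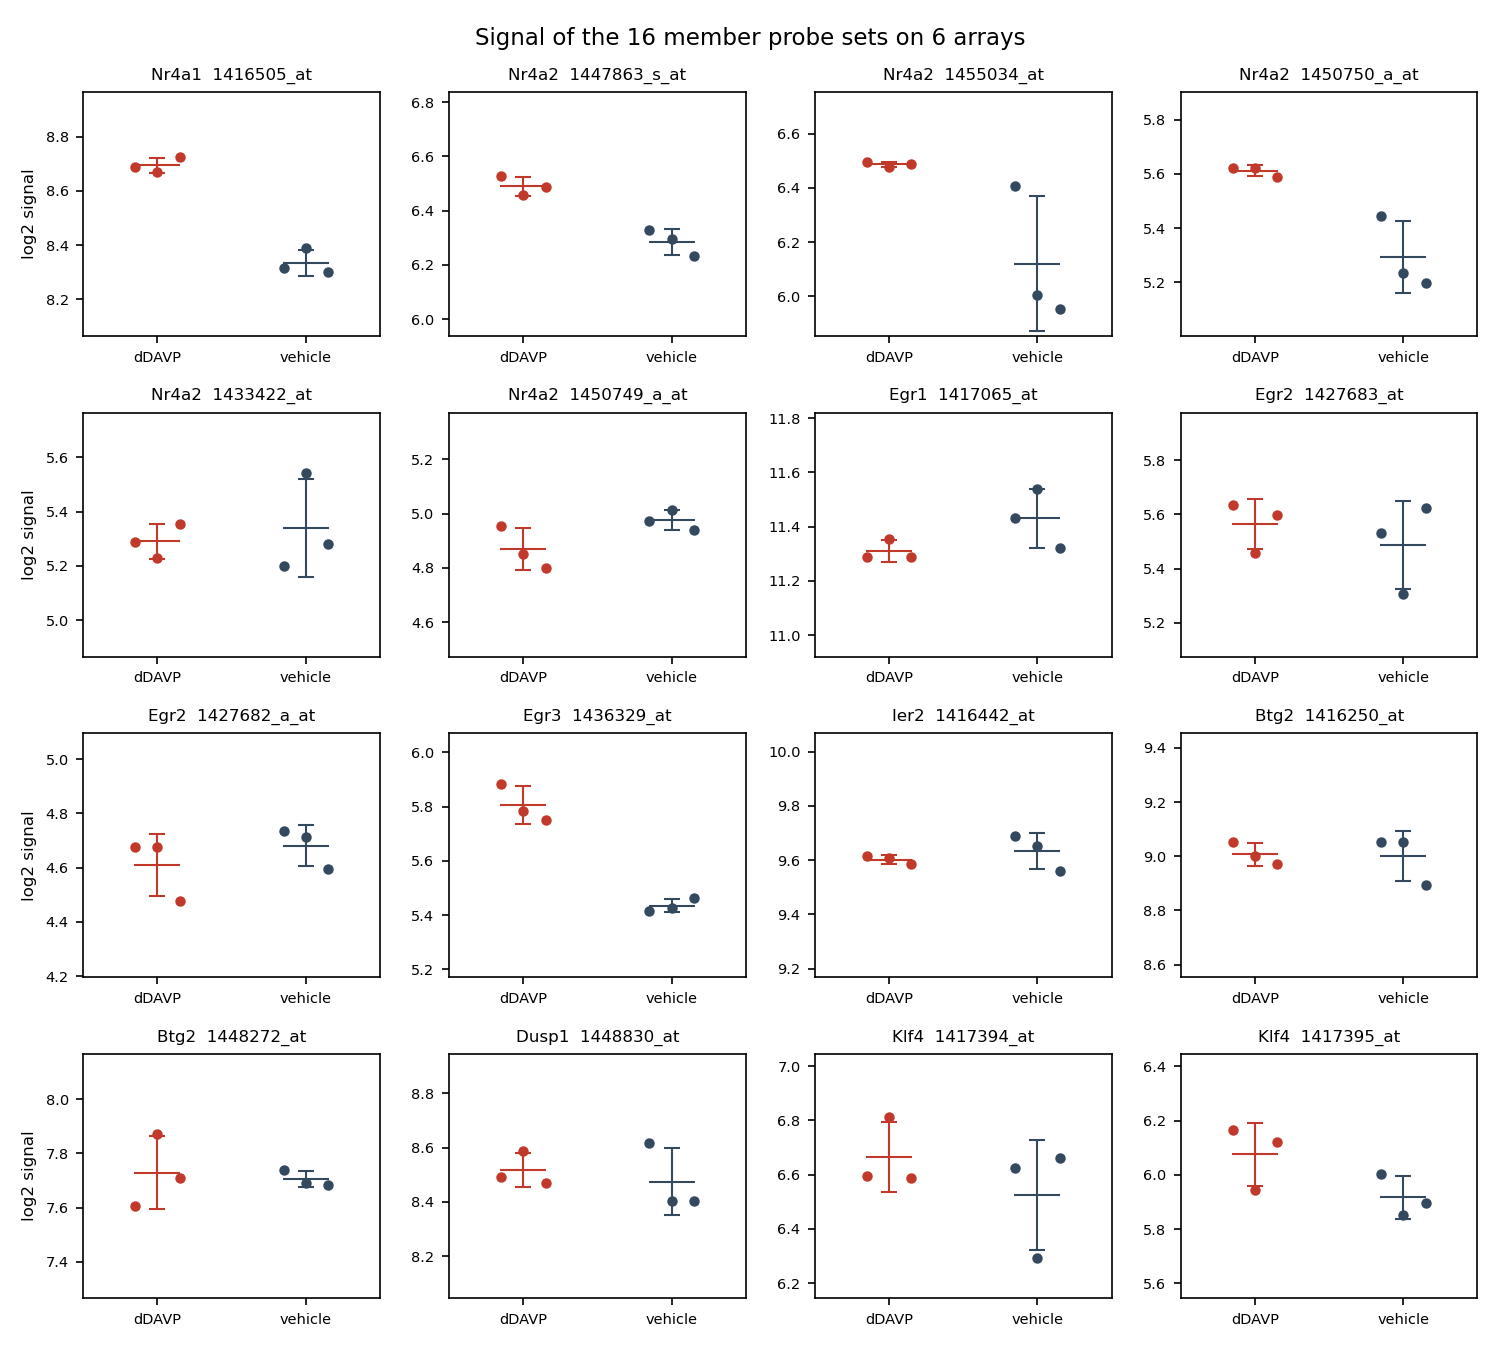
Log2 signal (vertical axis, each panel spanning the same height) of the 16 member probe sets on 3 dDAVP arrays (red, left) and 3 vehicle arrays (dark, right). Points are arrays, bars the mean and SD. The groups are apart for Nr4a1, 3 of 5 Nr4a2 probe sets and Egr3, and they overlap in the other 11 panels.

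Nr4a1 encodes an orphan nuclear receptor, a transcription factor that works without a known classical ligand and is a standard marker of cAMP and growth factor signalling. Its only probe set, 1416505_at, measured 8.69, 8.67 and 8.72 log2 units on the dDAVP arrays and 8.31, 8.39 and 8.30 on the vehicle arrays. The groups were apart by 0.28 log2 units at their nearest arrays, more than the spread within either group. The fitted change was 0.36 ± 0.058 (SE), or 1.28-fold (95% interval 1.17 to 1.41), and it ranked 91 among 28225 probe sets by p, with an adjusted p of 0.0910 in limma. With a trended prior, which lets the expected spread follow the signal level, it passed (adjusted p = 0.00955). It also passed when the dimmer part of the table, below the median, was left out (adjusted p = 0.0160) and when arrays were scaled to their hybridisation controls (0.51, adjusted p = 0.0276). It did not pass in any fit that left out 1 array, where the change was 0.34 to 0.39 and the adjusted p 0.149 to 0.333. Quantile normalization, median centring, a robust prior, the olfactory receptor filter, a replicate block and poly-A scaling also left it uncalled. Their limma adjusted p was 0.0687 to 0.432.

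Nr4a2, a second NR4A receptor best known for its role in dopamine neurons, had 5 probe sets that did not behave alike. The brightest, 1447863_s_at, whose suffix marks probes that may also bind other transcripts, measured 6.53, 6.46 and 6.49 in dDAVP and 6.33, 6.30 and 6.23 in vehicle cells. Its change was 0.20 ± 0.059 (SE, limma adjusted p = 0.399). Every dDAVP array lay above every vehicle array, by at least 0.13.

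Probe set 1450750_a_at measured 5.62, 5.62 and 5.59 in dDAVP and 5.44, 5.24 and 5.20 in vehicle cells, a change of 0.32 ± 0.077 (adjusted p = 0.282). Probe set 1455034_at measured 6.49, 6.48 and 6.49 in dDAVP and 6.41, 6.004 and 5.95 in vehicle cells, a change of 0.37 ± 0.12 (adjusted p = 0.461). On both, vehicle replicate 1 was the highest vehicle array and stood close to the dDAVP arrays. Without it the change of 1455034_at was 0.51 (adjusted p = 0.0840) and that of 1450750_a_at 0.40 (adjusted p = 0.190). Among the alternatives run, both passed only with arrays scaled to the hybridisation controls (0.51, adjusted p = 0.0392, and 0.47, adjusted p = 0.0305).

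The remaining 2 Nr4a2 probe sets overlapped between groups. 1433422_at measured 5.29, 5.23 and 5.35 in dDAVP and 5.20, 5.54 and 5.28 in vehicle cells (change -0.05 ± 0.095). 1450749_a_at measured 4.95, 4.85 and 4.80 in dDAVP and 4.97, 5.02 and 4.94 in vehicle cells (change -0.11 ± 0.064). Which Nr4a2 transcripts each probe set reads was not tested.

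**Figure D2:**
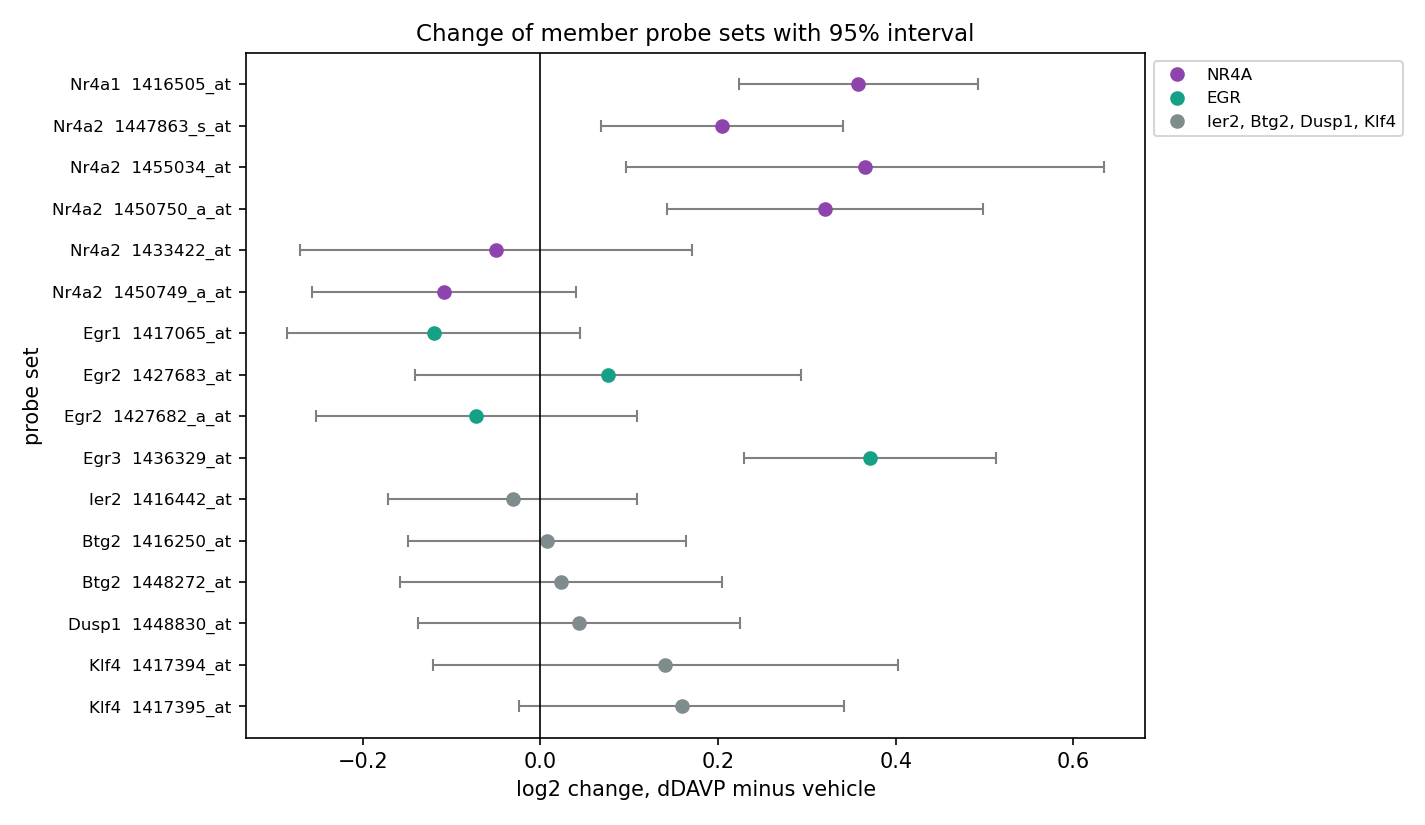
Log2 change, dDAVP minus vehicle (horizontal axis), of each member probe set with its 95% interval from the moderated fit, coloured by family. The intervals of Nr4a1, 3 Nr4a2 probe sets and Egr3 lie above 0, and those of the other 11 include 0.

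The EGR genes encode zinc finger factors that bind GC-rich sites and answer to the same stimuli. Egr1, the family member most used as a readout of growth factor and MAP kinase signalling, had 1 probe set, 1417065_at. It measured 11.29, 11.36 and 11.29 in dDAVP and 11.43, 11.54 and 11.32 in vehicle cells. The highest dDAVP array lay above the lowest vehicle array, so the groups overlapped. The change was -0.12 ± 0.071 (SE, 0.920-fold, 95% interval 0.821 to 1.03, limma adjusted p = 0.754), and it was 0.03 with arrays scaled to the hybridisation controls.

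Egr2, known from hindbrain and Schwann cell development, had 2 probe sets, and neither separated the groups. 1427683_at measured 5.63, 5.46 and 5.60 in dDAVP and 5.53, 5.31 and 5.62 in vehicle cells (change 0.08 ± 0.094). 1427682_a_at measured 4.68, 4.68 and 4.48 in dDAVP and 4.74, 4.71 and 4.59 in vehicle cells (change -0.07 ± 0.078). The fitted values thus had opposite signs, with intervals that included 0 in both.

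Egr3, which shares the zinc fingers of the family and is known for its role in muscle spindles, had the largest fitted value among the members as deposited. Its probe set 1436329_at measured 5.88, 5.79 and 5.75 in dDAVP and 5.42, 5.43 and 5.46 in vehicle cells. The groups were apart by 0.29 log2 units, and the vehicle arrays lay within a narrower range than the dDAVP arrays. The change was 0.37 ± 0.061 (SE, 1.29-fold, 95% interval 1.17 to 1.43), rank 100 by p, with limma adjusted p = 0.0928. Scaled to the hybridisation controls it passed (0.52, adjusted p = 0.0173). Leaving out 1 array gave changes of 0.33 to 0.40 and adjusted p of 0.205 to 0.325, and the adjusted p over the remaining alternatives was 0.0173 to 0.552.

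Whether members of a family changed unequally was tested on the difference of 2 brightest probe sets within each array, for the 4 pairs measured. The change of Egr3 exceeded that of Egr1 by 0.49 ± 0.089 (SE) and that of Egr2 by 0.30 ± 0.10, and the change of Nr4a1 exceeded that of Nr4a2 by 0.15 ± 0.040. In each of these 3 pairs the within-array differences did not overlap between groups (exact two-sided permutation p = 0.1, adjusted p = 0.133 over 4 pairs). With 3 against 3 arrays no smaller exact p is possible, so no pair could pass. The value for Nr4a1 against Nr4a2 depended on the Nr4a2 probe set. It was -0.0076 with 1455034_at (exact two-sided permutation p = 1), 0.038 with 1450750_a_at and up to 0.47 with the other two. For Egr1 against Egr2 on the brightest probe sets the difference was -0.20 ± 0.17 with overlapping arrays (exact p = 0.2).

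The remaining 4 genes had overlapping groups on all 6 of their probe sets and 0 with an unadjusted p below 0.05. Ier2, a nuclear protein of the early serum response, measured 9.62, 9.61 and 9.58 in dDAVP and 9.69, 9.65 and 9.56 in vehicle cells (change -0.03 ± 0.060, 95% interval -0.17 to 0.11). Dusp1, a nuclear phosphatase that inactivates MAP kinases, measured 8.49, 8.59 and 8.47 in dDAVP and 8.62, 8.40 and 8.40 in vehicle cells (change 0.04 ± 0.078, interval -0.14 to 0.22). Each dDAVP range lay inside the range of the vehicle arrays for these 2 genes.

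Btg2 is an antiproliferative adaptor that brings the CCR4-NOT deadenylase to mRNAs and is also a p53 target. Its brighter probe set, 1416250_at, measured 9.05, 9.0 and 8.97 in dDAVP and 9.05, 9.05 and 8.89 in vehicle cells (change 0.0073 ± 0.068, interval -0.15 to 0.16). The dimmer, 1448272_at, measured 7.60, 7.87 and 7.71 in dDAVP and 7.74, 7.69 and 7.68 in vehicle cells (change 0.02 ± 0.078). These intervals leave room for changes of about 1.15-fold on 1448272_at (interval of the fold 0.897 to 1.15) and 1.12-fold on 1416250_at.

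Klf4, a zinc finger factor of epithelial differentiation, had 2 probe sets with positive values. 1417394_at measured 6.60, 6.81 and 6.59 in dDAVP and 6.62, 6.29 and 6.66 in vehicle cells (change 0.14 ± 0.11). 1417395_at measured 6.16, 5.94 and 6.12 in dDAVP and 6.002, 5.85 and 5.90 in vehicle cells (change 0.16 ± 0.079, limma adjusted p = 0.688). On the second, only the dDAVP replicate 2 array lay within the vehicle range.

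Promoter sequences are shown for 4 members to set the CREB motif beside the values: Nr4a1, whose arrays were apart, Nr4a2, whose arrays were apart on 3 of 5 probe sets, and Btg2 and Dusp1, whose arrays overlapped. RefSeq promoters (GRCm38.p6) were matched for 7 of the 10 genes. Each sequence is the 250 bases before the transcription start, 5′ to 3′ on the gene's strand, with TGACG, the cAMP response half-site, in capitals on either strand (CGTCA on the other).
Nr4a1, chr15:101266596-101266845, plus strand: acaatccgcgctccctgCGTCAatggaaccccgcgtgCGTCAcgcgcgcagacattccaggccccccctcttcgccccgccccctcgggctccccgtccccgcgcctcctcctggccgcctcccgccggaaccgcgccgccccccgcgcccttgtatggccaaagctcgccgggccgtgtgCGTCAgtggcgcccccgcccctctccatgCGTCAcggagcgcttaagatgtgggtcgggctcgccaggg
Nr4a2, chr2:57124004-57124253, minus strand: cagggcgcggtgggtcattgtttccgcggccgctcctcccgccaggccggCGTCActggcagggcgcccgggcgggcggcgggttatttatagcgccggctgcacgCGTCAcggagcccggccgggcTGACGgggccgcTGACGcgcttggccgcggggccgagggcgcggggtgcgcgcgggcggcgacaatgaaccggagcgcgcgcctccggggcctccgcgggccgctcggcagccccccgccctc
Btg2, chr1:134079156-134079405, minus strand: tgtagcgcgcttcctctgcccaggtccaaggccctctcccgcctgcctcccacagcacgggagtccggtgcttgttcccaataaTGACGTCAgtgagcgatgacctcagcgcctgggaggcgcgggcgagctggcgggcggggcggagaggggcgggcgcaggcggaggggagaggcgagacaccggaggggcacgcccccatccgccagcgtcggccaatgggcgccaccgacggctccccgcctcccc
Dusp1, chr17:26508473-26508722, minus strand: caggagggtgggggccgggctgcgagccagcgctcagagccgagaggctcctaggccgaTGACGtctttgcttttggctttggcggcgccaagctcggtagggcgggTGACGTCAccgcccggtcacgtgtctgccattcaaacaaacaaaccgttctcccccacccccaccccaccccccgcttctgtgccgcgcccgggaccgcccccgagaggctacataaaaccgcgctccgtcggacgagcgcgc

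Both strands were searched. The full palindrome TGACGTCA, which contains a half-site on each strand, was found once in Btg2, 166 to 159 bases before the start, and once in Dusp1, 143 to 136 bases before it, and in 1.55% of 32851 promoter windows of the same length. It was in none (0) of the other matched members, Nr4a1, Nr4a2, Nr4a3, Egr2 and Klf4. Nr4a1, Nr4a2 and Nr4a3 each held 4 half-sites, a number that 0.137% of all windows reached or passed, whereas at least 1 was in 17.8%. In Nr4a1 they began 233, 213, 69 and 40 bases before the start. Half-sites were also found in the other matched members, 3 in Dusp1, 2 in Btg2, 2 distinct ones in Egr2 and 1 in Klf4. Btg2 and Dusp1, which held the full element, had overlapping arrays. No promoter was matched for Egr1, Egr3 and Ier2, so theirs were not searched, although the Egr3 arrays were apart. Whether any motif goes with a change was not tested. A CArG box, the site of serum response factor, was in 4 of the 5 Egr2 windows, some of which overlap, so that these were 2 distinct sites, and in 1.47% of all windows. The EGR motif GCGNGGGCG was found 1 time each in Nr4a1, Nr4a2 and Btg2 and 2 times in Klf4, and in 4.70% of all windows. The NR4A monomer motif AAAGGTCA was in 0 of the member windows and in 1.34% of all. These are letter matches, not binding sites.

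Other genes of the pathway were described from lists chosen with earlier results known, each gene by its brightest probe set. Of 125 listed genes 109 were measured, 1 rose on that probe set (Pde4b), 0 fell, and 20 had higher and 6 lower means in dDAVP cells at an unadjusted p below 0.05. That is 26 of 109, against 7.8% of all named genes, and 0.291% of all named genes were called. Among 12 measured early targets of CREB the median log2 change was 0.22. At an unadjusted p below 0.05, 5 of them were higher and 1 was lower in dDAVP cells. The lower was Ppargc1a, a transcriptional coactivator gene, at -0.28 ± 0.071 (limma adjusted p = 0.308), with every dDAVP array below every vehicle array. Pde4b, which encodes a cAMP phosphodiesterase, rose by 1.81 ± 0.10 (SE, limma adjusted p = 9.74e-04). Sik1, a kinase that holds CREB coactivators out of the nucleus, was at 0.58 ± 0.13 and did not pass (adjusted p = 0.227). Rgs2, a regulator of G protein signalling, was at 0.62 ± 0.10 on its brightest probe set, which did not pass (limma adjusted p = 0.0928), whereas its probe set 1419248_at passed with a change of 0.92 ± 0.10 (limma adjusted p = 0.0172).

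The 10 other dual specificity phosphatases had a median of 0.14, with 4 at an unadjusted p below 0.05, all higher in dDAVP cells, and 0 called. They included Dusp4, an inducible nuclear MAP kinase phosphatase (8.60 ± 0.050 in dDAVP and 8.37 ± 0.041 in vehicle cells, change 0.23 ± 0.060), and Dusp10, which acts on p38 and JNK (0.34 ± 0.10). Of the AP-1 factors Fosl2 was at 0.39 ± 0.070 and Jun at -0.38 ± 0.071, with 0 of 8 called in limma and 3 at an unadjusted p below 0.05. Nab2, a corepressor of EGR proteins and itself induced by them, was at 0.16 ± 0.071, and Nab1 at 0.0073 ± 0.055. Rxra, a retinoid X receptor that pairs with NR4A proteins, was at 0.11 ± 0.065, and the glucocorticoid receptor gene Nr3c1 at -0.17 ± 0.056 (3 measured, 0 called, 1 at an unadjusted p below 0.05).

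Genes of the serum response had a median of 0.06 over 20 measured, with 6 at an unadjusted p below 0.05 and 0 called. Id3, an inhibitor of helix-loop-helix factors, was at 0.42 ± 0.080 and Myc at 0.26 ± 0.069. Of the factors upstream, Mef2d was at 0.25 ± 0.063 and Creb1 at -0.13 ± 0.057 (14 measured, median 0.01, 0 called, 1 at an unadjusted p below 0.05). The median was -0.0042 for 11 MAP kinases and their partners, where Mapk9 was at 0.22 ± 0.065 and Map2k3 at 0.17 ± 0.055. It was -0.01 for 13 other KLF and SP factors, where Klf10 was at -0.22 ± 0.069 and Klf12, below the olfactory receptor background, at -0.17 ± 0.061. For 8 BTG, TOB and CCR4-NOT genes the median was -0.03, with Tob1 at 0.31 ± 0.14 and Cnot6l at -0.13 ± 0.064. Heat shock genes, which respond to cell handling, had a median of -0.04, a range of -0.08 to 0.05, and 0 of 8 at an unadjusted p below 0.05, with Dnajb1 at -0.08 ± 0.062 and Hsp90aa1 at -0.06 ± 0.073. At an unadjusted p below 0.05 there were 2 MAP kinase, 3 KLF and SP, and 0 BTG, TOB and CCR4-NOT genes. In these lists and the heat shock list 0 genes were called.

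**Figure D3:**
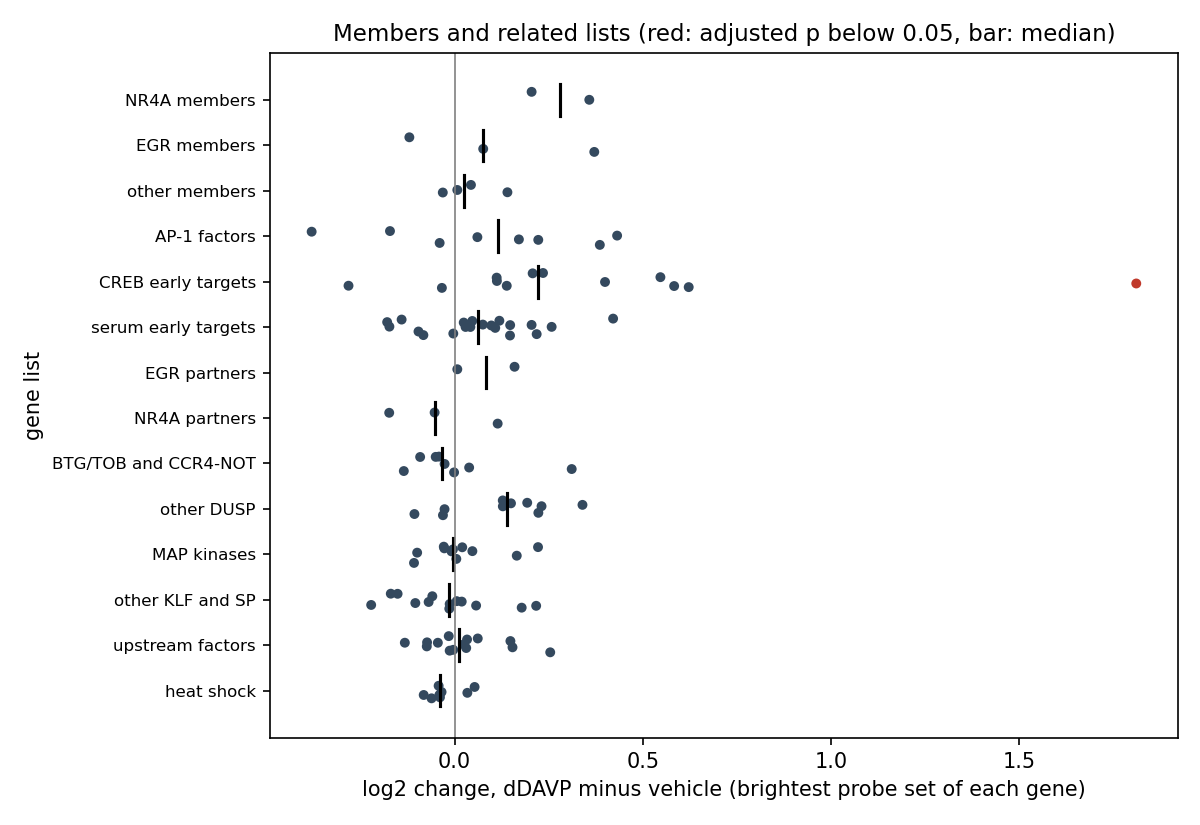
Log2 change, dDAVP minus vehicle (horizontal axis), of each measured gene on its brightest probe set, for the members and the related lists. Points are genes, black bars medians, red points an adjusted p below 0.05. Pde4b, at 1.81, is the only red point, and the medians of the MAP kinase, KLF and upstream factor lists lie close to 0.

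The genes whose signal tracked Nr4a1 most closely over the 6 arrays were Ly6e (Pearson r = 0.996), Fcgbp (0.994) and Gjb1 (0.994). Those closest to Egr1 were Incenp (0.993), Numa1 (0.987) and Blmh (0.984). A value above 0.9 was reached by 328 of 12364 genes with Nr4a1 and by 116 with Egr1. The arrays share a treatment difference, so these values are a description.

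The scaling of the arrays moved the members together. The hybridisation controls, transcripts added to the labelled material, averaged 10.46 ± 0.066 in dDAVP and 10.61 ± 0.080 in vehicle arrays (exact two-sided permutation p = 0.1). Scaled to them, the median change of all probe sets was 0.15, all 16 members had positive values and 4 were called: Nr4a1, 2 Nr4a2 probe sets and Egr3. Under that scaling 282 of all 28225 probe sets were called (0.999%), 275 of them higher in dDAVP cells. The same shift was added to every probe set. The poly-A controls, added before labelling, averaged 8.12 ± 0.019 in dDAVP and 8.10 ± 0.10 in vehicle arrays, and scaling to them gave 0 member calls and a lowest adjusted p of 0.432.

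**Figure D4:**
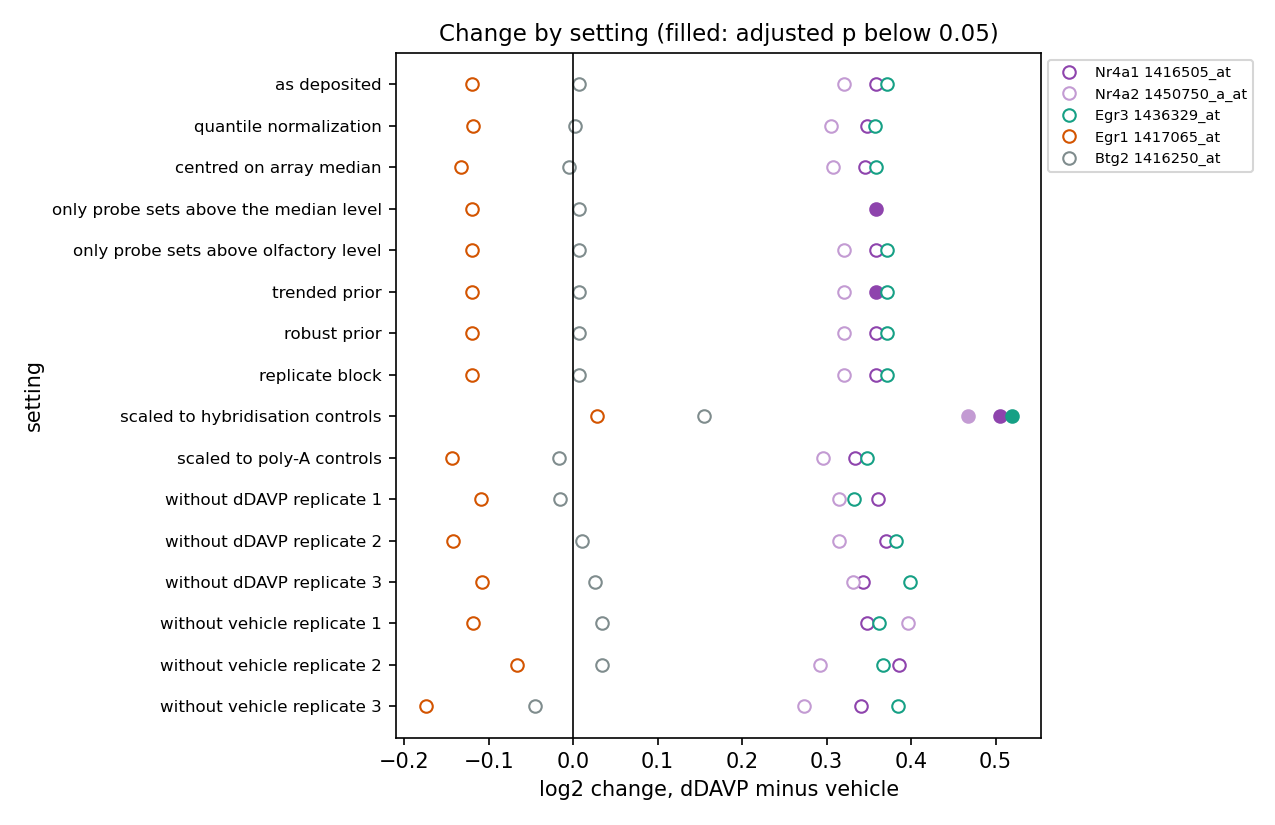
Log2 change, dDAVP minus vehicle (horizontal axis), of 5 member probe sets under each setting (rows), filled where the adjusted p is below 0.05. Nr4a1, Nr4a2 (1450750_a_at) and Egr3 stay between 0.27 and 0.52, Egr1 between -0.17 and 0.03, and Btg2 (1416250_at) between -0.05 and 0.16. Nr4a2 is shown on the probe set with the lowest p among those whose groups were apart, the other genes on their brightest. Nr4a2 probe sets not shown were at 0.18 to 0.35 (1447863_s_at, the brightest) and 0.28 to 0.51 (1455034_at). Those that overlapped were at -0.12 to 0.098 (1433422_at) and -0.15 to 0.039 (1450749_a_at). The Nr4a2 and Egr3 probe sets are below the median level and have no point under that filter.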

How the data were processed

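Total RNA from 6 cultures was labelled with biotin and measured on 1 Affymetrix array each, per the labels' protocols. The authors deposited log2 signals, 1 per probe set and array. Affymetrix Expression Console 1.1, MAS5 and RMA appear in the submitters' processing notes, without saying which made the values. Values ran from 2.15 to 14.1, array medians lay within 0.043 log2 units, and arrays correlated at 0.996 to 0.998. Ratios of dim probe sets can be understated by the summary over probes. The table held 28287 probe sets, of which 62 controls were left out of the test. The number of arrays limits the precision.

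Names came from the platform annotation (23097 with 1 gene, 611 with several, 4517 with none), and 23026 were matched by Entrez ID to RefSeq (GRCm38.p6), which changed 0 symbols. Sample titles gave the groups and replicate numbers. limma 3.58.1 in R 4.3.3 (lmFit, eBayes, 4 residual degrees of freedom) compared dDAVP with vehicle over 28225 probe sets, with Benjamini-Hochberg adjustment and a threshold of 0.05. Single values per array were compared by exact two-sided permutation. The moderated fit gave SEs and 95% intervals, except that the SE of a difference between 2 genes is that of its own fit over 6 arrays. The code was tested on simulated data. The members, the lists, the tests and the alternatives were chosen with earlier results of these data known. All members were named, with Aqp2 as the check, every called gene of a related list or otherwise the 2 with the lowest p, and the 3 genes most like Nr4a1 and Egr1. Sik1, Avpr2, Fxyd4, Ptprc, Cdh5, Csf1r, Lrp2, Aqp1, Cd68, Rgs2, Ppargc1a and the intercalated cell genes were added after their values were seen. Alternatives were other normalizations, scalings, filters, priors, a stricter threshold, a replicate block and leaving out each array. Figures were drawn with matplotlib 3.10.9.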

Additional observations from a re-analysis of the deposited data

How the results depend on the processing

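Counts of calls moved as follows. Over all probe sets 61 were called as deposited, 53 of them higher and 8 lower in dDAVP cells. There were 95 with the dimmer probe sets left out (mean below the median), 146 with a trended prior, 282 scaled to the hybridisation controls and 23 at an adjusted p below 0.01. There were 22 to 46 without 1 array, where the fit without vehicle replicate 2 gave 46 and each of the other 5 at most 30. The fits without 1 array tested the same 28225 probe sets on fewer arrays. Why the counts differ was not tested. Lower calls numbered 21 above the median level, 30 with a trended prior, 13 above the olfactory receptor level, 5 with poly-A scaling, 3 with the replicate block, 4 at an adjusted p below 0.01 and 4 to 6 without 1 array. Of the calls 86.9% were higher as deposited and 97.5% scaled to the hybridisation controls. The count of member probe sets called, 0 as deposited, was 1 above the median level (6 of the 16 members tested), 1 with a trended prior, 4 scaled to the hybridisation controls and 0 in the rest, including every fit without 1 array (0 to 0). The count of related genes called, 1 as deposited, was 2 above the median level, 4 with a trended prior, 9 scaled to the hybridisation controls and 2 when a gene's probe sets were averaged. With the replicate number as a block, 24 probe sets and 0 members were called. Deviations of same-numbered arrays correlated at 0.20, 0.046 and -0.052. Among the vehicle arrays, dDAVP replicates 1 and 2 correlated best with their own number and dDAVP replicate 3 with vehicle replicate 2 (0.17). So few values cannot decide whether the arrays were paired, and the main fit treated them as unpaired.

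Nr4a1, Egr3, Dusp1, both Klf4 probe sets and the 3 higher Nr4a2 probe sets kept a positive value under every alternative that tests them, as did Aqp2 (4.11 to 4.30). The priors, replicate block, level filters and stricter threshold cannot change a fitted value. Only the normalizations, scalings and fits without 1 array could change a sign. Values that changed sign were all uncalled. Scaled to the hybridisation controls these were 0.098 (Nr4a2 1433422_at), 0.039 (Nr4a2 1450749_a_at), 0.028 (Egr1), 0.076 (Egr2 1427682_a_at) and 0.12 (Ier2). Btg2 1416250_at was -0.0050 centred on the array median and -0.017 scaled to the poly-A controls, where Btg2 1448272_at was -0.00060. Without 1 array the range was -0.046 to 0.034 for Btg2 1416250_at, -0.049 to 0.085 for Btg2 1448272_at, -0.12 to 0.051 for Nr4a2 1433422_at and -0.014 to 0.14 for Egr2 1427683_at. The 4 differences within families kept their direction in the 8 alternatives that used the brightest probe sets. The replicate block is among these and cannot change a difference. With other probe sets of Nr4a2 and Egr2, an alternative chosen after seeing the data, Nr4a1 minus Nr4a2 was -0.00759 with 1455034_at, and the differences from the other probe sets kept their direction.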
